A study of Mus musculus with 6 samples.

Results

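The probes described here lie at the immunoglobulin heavy chain locus of the mouse, on chromosome 12, and were measured in medullary thymic epithelial cells (mTECs) of mice without Mbd1 and of wild-type mice. They were chosen from the 41174 probes of the authors' deposited expression matrix. A probe was taken where the matrix placed it on chromosome 12 and its description named an immunoglobulin, which found 57 probes. A probe with no description was taken where it began between 114.5 and 117.3 Mb, which found 17 more. Of these 74 probes, 72 belonged to the heavy chain locus, 14 of them in constant region genes and 58 assigned to the variable region. The other 2, described as a kappa light chain segment and placed far from the locus, at 12:93290882-93290941 and 12:93290953-93291012, are given once below.

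The mice were Mbd1 knockout (KO) or Mbd1 wild type (WT), all 30 days old. mTECs are the thymic cells that display proteins of many tissues to developing T cells. They were sorted as live cells that carried EpCAM and MHC class II and lacked CD45, CD11c and Ly51. Their RNA was amplified whole, tagged with Cy3 and read on 1-colour Agilent arrays, with 3 arrays per genotype kept by the authors out of 4 biological replicates of each. The labels do not say how many animals made up a replicate or in which cells Mbd1 was deleted, so p-values measure the spread between these samples alone. In bulk RNA, more cells of a type and more RNA per cell cannot be told apart.

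An antibody heavy chain is read from a gene that B cells assemble by joining variable (V), diversity and joining segments. The joined exon is spliced to a constant gene, first mu (IgM) and delta (IgD), and class switching later places a gamma (IgG), epsilon (IgE) or alpha (IgA) gene next to it. Plasma cells secrete the product in quantity. The locus is read from the minus strand, so in the coordinates below V segments have the highest values, mu the highest among constant genes and alpha the lowest. The 14 constant probes spanned 12:113706582-113869286 in the matrix's own coordinates, whose build the sources used here do not name, and the variable probes 12:114036075-116588057, apart from 1 that lay among the constant genes. The matrix's second set of coordinates, from Ensembl, placed 30 V segments a median of 790480 bases higher, so the 2 sets do not share a build.

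The deleted gene was checked first, and the 2 sources of values gave opposite answers. In the matrix, Mbd1 (probe A_51_P143224), the gene of a reader of DNA methylation, stood at 5.64, 5.61 and 5.60 in columns KO_1, KO_2 and KO_3, against 8.83, 8.60 and 9.0 in WT_1, WT_2 and WT_3, on the log2 scale. The KO columns lay at the level of probes never detected, and the difference of -3.19 had an adjusted p of 6.2e-05 (limma, Benjamini-Hochberg over 32246 kept probes). A second probe, A_52_P158923, differed by -2.96, and another, A_52_P131423, by -0.98 with an adjusted p of 0.125 (limma). Whether these probes lie in the deleted part was not checked. On the scanner arrays under their titles, A_51_P143224 read 356, 17.2 and 682 intensity units on the arrays titled KO #1, KO #2 and KO #3, against 20.9, 305 and 15.6 on those titled WT #1, WT #2 and WT #3. Both titled genotypes thus held bright and dim arrays.

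By rank of the probes, 5 of the 6 matrix columns equalled a scanner array exactly, 4 of them an array of the other titled genotype. KO_2 equalled the array titled WT #1, KO_3 the array titled WT #3, WT_1 the array titled WT #2, WT_2 the array titled KO #1 and WT_3 the array titled KO #3. Column KO_1 equalled no array here, and the array titled KO #2 equalled no column. Groups below are the columns by name. Because these columns had shown the heavy chain difference when the probes were chosen, the KO against WT values of the members are a description without a test. A list of 15 thymic epithelial genes had a mean level of 12.1 in each of the 6 columns. It holds Psmb11 and Ly75, so it is not a list of genes particular to mTECs. Single genes varied under that mean. Cd80 read 12.03, 12.30 and 10.87 in KO and 12.14, 11.93 and 12.18 in WT. The equal mean does not show that the sorted cells were alike.

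Over the 72 heavy chain locus probes, the median level was 8.33, 9.87 and 9.03 in KO_1, KO_2 and KO_3, against 7.30, 7.32 and 7.36 in WT_1, WT_2 and WT_3 (log2; 9.07 ± 0.77 against 7.33 ± 0.03, mean ± SD of the column medians, n = 3 each). The median KO minus WT difference was 1.61 on the log2 scale, a fold of 3.06, while the median over all probes was -0.01. Of the 72, 69 had a positive difference and 49 one above 1, against 0.503% of all probes above 1. Every KO column lay above every WT column at 45 probes, against 4.02% of all probes of the matrix, and below at 1. From counts on the contrast that chose the probes nothing further is read. The KO columns were far apart from each other: KO_2 was the highest KO column at 54 probes, KO_1 the lowest at 48, and the median SD of a probe was 0.87 in KO and 0.28 in WT. Without KO_1, which equalled no array, and WT_1, the median difference was 1.93.

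Constant and variable probes differed in size. The 58 variable probes had median levels of 8.16, 9.82 and 8.92 in KO_1, KO_2 and KO_3, against 6.80, 7.02 and 6.99 in WT_1, WT_2 and WT_3. They had a median difference of 1.71 (3.26-fold), from -0.28 to 3.18, and 40 of them had no overlap with KO above. The 14 constant probes had median levels of 8.63, 11.67 and 10.09 in KO and 8.15, 8.97 and 8.50 in WT. Their median difference was 0.96 (1.94-fold), from 0.11 to 3.39, and 5 had no overlap. Over the 11 constant probes counted as well above background on all 6 arrays the median difference was 0.49. Those left out, A_51_P509679, A_51_P187645 and A_52_P571419, were not dim. Their spots were removed as outliers on an array or more, which counted there as not above background. They had differences of 2.99, 2.92 and 3.39, so the lower median reflects their removal. The constant median difference was 0.75 lower on the log2 scale, and the constant probes were not alike. The 3 alpha probes and 2 of the 3 mu probes had a median of 2.92 with no overlap at any of the 5, while the other 9 constant probes had a median of 0.39 and overlapped at all 9. The overlapping mu probe is placed with the 9 by its own values, so this split is only a description.

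The mu gene makes IgM, the first antibody class a B cell carries. Its probe A_52_P571419 (12:113868697-113868756) stood at 12.25, 13.83 and 11.88 in KO_1, KO_2 and KO_3, against 8.26, 9.44 and 10.09 in WT_1, WT_2 and WT_3. All 3 KO columns were well above all WT columns, by 3.39 on average. A second mu probe, A_51_P485421 (12:113869227-113869286), read 11.53, 13.23 and 10.87 in KO and 8.87, 9.48 and 9.82 in WT. It too had no overlap, with a difference of 2.49. The third, A_52_P358360 (12:113866458-113866517), read 8.33, 8.71 and 8.94 in KO and 8.04, 8.52 and 8.25 in WT, a difference of 0.39 with the columns overlapping. This probe lay 2239 and 2769 bases from the other mu probes in the direction of transcription, and carries the same transcript accession as A_51_P485421. As background, the mu gene has separate end exons for the secreted and the membrane form, with the membrane exons downstream. Whether the third probe lies in a membrane exon was not checked, as no genome of this build was used here.

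Alpha makes IgA, the main antibody of mucosal secretions. Probe A_51_P509679 (12:113706582-113706641) stood at 11.72, 13.39 and 12.95 in KO_1, KO_2 and KO_3, against 9.21, 9.77 and 10.11 in WT_1, WT_2 and WT_3, a difference of 2.99. The neighbouring A_51_P187645 (12:113706720-113706779) gave 11.49, 13.52 and 12.68 in KO and 9.46, 9.67 and 9.82 in WT, a difference of 2.92. The third alpha probe, A_51_P180159 (12:113706840-113706899), gave 10.65, 12.38 and 11.34 in KO and 9.46, 9.80 and 9.71 in WT, a difference of 1.80. KO_2 was highest and KO_1 lowest among KO columns at all 3, with no overlap with WT. The WT levels of the first 2 mu probes and of the alpha probes, from 8.26 to 10.11, were far above the level of never detected probes, at most 5.67.

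The gamma genes, which make IgG, were each high in 1 or 2 columns, and none separated the genotypes. IGHG1 probe A_52_P1054013 (12:113776999-113777058) stood at 10.83, 13.28 and 10.28 in KO_1, KO_2 and KO_3, against 12.36, 10.36 and 10.19 in WT_1, WT_2 and WT_3. Here 1 column of each genotype, KO_2 and WT_1, was high. The other IGHG1 probe, A_51_P461067, had the same 2 high columns, at 11.40 in KO_2 and 10.63 in WT_1, while the remaining 4 lay between 8.45 and 8.93. Without KO_2 the differences of these 2 probes turned from 0.49 and 0.37 to -0.42 and -0.52, and without WT_3 that of A_51_P461067 was -0.03. IGHG2B (A_52_P74106, 12:113754262-113754321) read 7.59, 11.93 and 10.73 in KO and 7.82, 9.28 and 8.46 in WT, so KO_2 and KO_3 were above all WT columns and KO_1 below them. IGHG2C was high in KO_3 alone: A_51_P311235 read 6.65, 6.30 and 9.05 in KO and 6.64, 6.37 and 6.23 in WT, and A_51_P351953 read 7.56, 8.22 and 9.90 in KO and 7.66, 7.39 and 7.62 in WT. The 5 gamma probes had a median difference of 0.92, and all 5 overlapped.

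Delta and epsilon showed small differences. IGHD, which B cells carry beside IgM before they meet antigen, read 8.32, 8.80 and 8.59 in KO and 8.0, 8.09 and 8.54 in WT (A_51_P266248, difference 0.36). IGHE, the gene of the class bound by mast cells, had differences of 0.11 and 0.12 at A_52_P15658 and A_51_P140829. The columns of both genotypes overlapped at these 3 probes, and the IGHE levels lay between 6.10 and 7.70.

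Among the V segments, 35 probes carried a segment name with a family number, and their median differences ran from 0.16 for the single IGHV7 probe to 2.65 for the 4 IGHV5 probes. IGHV1, the family with most probes here, had 21, with a median of 1.46, a range of 0.53 to 2.37 and 18 without overlap. The 14 named probes of other families had a median of 2.05. Segments of a family are close in sequence, so a probe may also bind RNA of related segments. Family values are therefore not values of single genes.

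Of the families, IGHV5 had the smallest spread in KO, with a median SD of 0.35. IGHV5-9 (A_52_P562911, 12:114073386-114073439) stood at 10.04, 9.83 and 9.38 in KO_1, KO_2 and KO_3, against 6.35, 7.19 and 7.17 in WT_1, WT_2 and WT_3. Its KO columns were wholly above WT, by 2.85. IGHV5S8 (A_51_P391836, 12:114045298-114045356) read 11.31, 10.53 and 10.25 in KO and 7.08, 8.43 and 8.21 in WT, and IGHV5-17 (A_51_P275642, 12:114307146-114307205) read 10.17, 10.31 and 9.62 in KO and 6.98, 8.03 and 7.56 in WT. KO_1, the lowest KO column at most heavy chain probes, was the highest of them at 3 of the 4 IGHV5 probes, and WT_1 was the lowest WT column at all 4. The matrix describes the IGHV5S8 probe as heavy chain complex and the IGHV5-17 probe as a gamma chain, but both lay at V segments, and the IGHV5S8 probe shares its transcript accession with the 3 alpha probes.

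IGHV3-6 (A_52_P311042, 12:114736061-114736120) had the largest difference among V probes above background in at least 3 columns. It stood at 8.17, 8.30 and 8.13 in KO_1, KO_2 and KO_3, against 5.29, 4.97 and 5.08 in WT_1, WT_2 and WT_3. The KO columns nearly coincided, and on the 3 arrays equal to WT columns the probe was not well above background. Against the dimmest signal measurable on those arrays, KO was at least 7.20-fold higher. The bound sets the mean of all KO columns against, per WT column, the higher of the probe's own level and the lowest level well above background.

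Other probes that were not well above background in WT differed strongly between KO columns. The probe NAP056816-1 (A_52_P508537), with no description and at 12:114600959-114601018, read 5.43, 10.77 and 9.17 in KO and 5.29, 5.21 and 5.33 in WT, at least 8.61-fold higher in KO by the mean; KO_1 stayed at the level of never detected probes, and the probe is named for this after its values were seen. IGHV3-8 read 5.95, 9.82 and 6.79 in KO and 5.26, 5.54 and 5.57 in WT, at least 4.11-fold higher. IGHV8-12 read 6.77, 8.84 and 6.89 in KO and 5.79, 5.46 and 5.54 in WT, at least 3.74-fold higher. At each of these, KO_2 was the highest column and KO_1 the lowest KO column.

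The remaining probes among the 10 with the largest variable region differences lay between 2.28 and 2.70. They were IGHV2-2 (A_51_P367462, 2.70), X12388 (A_52_P648824, 2.68), U39781 (A_52_P139027, 2.39), NP614311 (A_52_P490470, 2.38) and 2 probes named IGHV1S99 (A_52_P653565, 2.37, and A_52_P532769, 2.28). The 2 IGHV1S99 probes had narrow KO values: A_52_P532769 read 10.11, 10.37 and 9.86 in KO and 7.69, 7.86 and 7.95 in WT. All 10 had every KO column above every WT column.

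Some V probes were high in a single WT column. IGHV2-2 read 9.02, 10.52 and 8.85 in KO and 8.30, 6.06 and 5.94 in WT, and IGHV2-3 (A_51_P103945) read 8.37, 10.66 and 9.15 in KO and 9.96, 5.97 and 6.15 in WT. WT_1, the WT column high for IGHG1, was the high one at both IGHV2 probes. IGHV14S2 (A_51_P117903) read 7.56, 9.59 and 9.86 in KO and 7.34, 7.65 and 9.33 in WT. IGHV14-4 (A_52_P53507) read 6.85, 9.998 and 9.67 in KO and 7.43, 7.48 and 9.38 in WT. At both IGHV14 probes KO_2, KO_3 and WT_3 were high and the other 3 columns low. The IGHV14S2 probe shares its transcript accession with the IGHG2B probe, which was also high in KO_2 and KO_3. In WT the 2 differed, as IGHG2B was highest in WT_2 (9.28) and read 8.46 in WT_3.

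At the low end, 5 variable region probes had differences from -0.28 to 0.06. A_52_P387844 (12:116040851-116040910) read 7.37, 7.29 and 7.39 in KO and 7.60, 7.69 and 7.59 in WT, and was the single member with every KO column below every WT column. A_51_P270661, described as a V segment of the J558 family, lay among the constant genes at 12:113712756-113712814 next to the alpha probes, where the matrix's second annotation has an I alpha entry, and its difference was -0.03. BF119155 (A_52_P779997, 0.02) and BU920841 (A_51_P342773, -0.04) lay on the plus strand beyond the last named V segment, which ended at 116447895. NAP108526-1 (A_51_P203356) and the third plus-strand member, AK079758, each differed by 0.06. These 2 and BF119155 were well above background on none of the arrays.

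Along the locus, the lowest 19 variable probes by coordinate, nearest the constant genes, had a median difference of 1.98, the middle 19 of 1.96 and the highest 19 of 1.17. Probes without overlap numbered 13, 16 and 11 in that order. Well above background on at least 3 arrays were 69 of the 72 members, all 14 constant and 55 variable probes. The other 3 were all in the highest 19, so this order is not one of detected probes alone.

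The KO columns were also compared probe by probe. A probe was counted in a KO column where it exceeded the highest WT column by more than 1 on the log2 scale. Of the 58 variable probes, 14 were counted in KO_1, 43 in KO_2 and 39 in KO_3. Of all 41174 probes, 162, 224 and 313 were counted in these columns, so over all probes KO_3 had most. The 14 of KO_1 were the same 14 that were counted in all 3 columns (24.1% of the variable probes, against 0.155% of all probes). Another 24 were counted in 2 columns, 6 in 1 (10.3%, against 0.857% of all probes) and 14 in none. Over all probes, 77 were counted in 2 columns and 40680 in none. The 6 probes counted in 1 column alone were 5 in KO_2, IGHV2-2, IGHV7-1, AY182513, AF218659 and NAP106724-1, and 1 in KO_3, AY547436. Of the 14 constant probes, 4 (28.6%) were counted in all 3 columns.

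Probes just outside the rule were read too. Between the constant genes and the lower edge of the position window lay 5 probes with no description, and 1 more lay among the constant genes. Of the 5, 3 had no overlap, against 4.02% of all probes. AY895789 (A_52_P463637, 12:113876338-113876397) read 8.60, 10.55 and 9.04 in KO and 5.37, 5.75 and 6.15 in WT, a difference of 3.64. AY172399 differed by 2.57, and AB056117 by 3.02. The other 2 overlapped, with differences of 1.80 (L20961) and -0.09 (NAP019878-001). The 5 had a median difference of 2.57. X87228, the probe among the constant genes next to IGHG1, was high in KO_2 (10.04) and WT_1 (10.01), the columns high at IGHG1, and differed by 0.18. The 2 kappa probes found by description, far below the locus on chromosome 12, differed by 0.75 and 0.23.

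The array titled KO #2 was not among the columns that chose the probes. Its Mbd1 intensity was among the 3 dim ones at A_51_P143224 (17.2) and at A_52_P158923 (21.3). At the remaining Mbd1 probe, A_52_P131423, it was the highest of the 6 arrays, at 93.3 against 26.0 to 91.5. The slide of the array titled KO #2 also held the arrays equal to WT_2 and WT_3. On log2 processed intensities scaled to each array's 75th percentile, the median of the heavy chain probes was -0.40 on the array titled KO #2, 0.92 on WT #1 and 0.04 on WT #3, the arrays equal to KO_2 and KO_3, against -1.85, -1.60 and -2.14 on the arrays titled KO #1, KO #3 and WT #2, equal to WT_2, WT_3 and WT_1. By this median the array titled KO #2 lay between the arrays equal to KO columns and those equal to WT columns. Over the constant probes alone it did not. Its median there was -0.17, below 0.05 on the array titled KO #1, equal to WT_2. Constant probes A_51_P509679, A_51_P187645 and A_52_P571419 had no value on the array titled KO #2, where their spots were removed as outliers.

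Of the 68 members measured on all arrays, the array titled KO #2 was above all 3 arrays equal to WT columns at 53 (77.9%), against 42.5% of all probes. It was above both other arrays of its slide at 57 (83.8%), against 50.7% of all probes, with a median difference of 1.22, and 0.19 over all probes. After normexp and quantile normalization, which put all arrays at one median, it was above the 3 arrays at 55 of 72 (76.4%, against 31.9% of all probes) and above those of its slide at 57 (79.2%, against 41.2%), with a median difference of 0.86. On that scale the variable probes had medians of 8.57 on the array titled KO #2, and 9.85 and 8.98 on those equal to KO_2 and KO_3. On those equal to WT_2, WT_3 and WT_1 they had 7.28, 7.24 and 7.11. The constant probes had a median of 9.18 on the array titled KO #2, and 11.67 and 10.11 on those equal to KO_2 and KO_3. On those equal to WT_2, WT_3 and WT_1 they had 9.03, 8.59 and 8.25. On the other slide, the arrays equal to KO_2 and KO_3 were both above the array equal to WT_1 at 56 of 68 (82.4%, against 31.6% of all probes), with a median difference of 2.68. With normexp and quantile values that count was 61 of 72 (84.7%, against 30.4%). All 3 arrays of that slide equal columns that chose the members, so these counts restate the choice. On the slide of the array titled KO #2, the WT side is made of arrays that also chose the members, and 1 or 2 arrays a side allow no test.

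Single members on the array titled KO #2 did not all follow one pattern. The alpha probe A_51_P180159 read 2.55 there, 3.56 and 2.53 on the arrays equal to KO_2 and KO_3, and 0.97, 0.81 and 0.50 on those equal to WT_2, WT_3 and WT_1, on the scaled log2 scale. IGHV8-12 was higher there (2.13) than on any other array, the next being 0.01 on the array equal to KO_2. IGHG1 at A_52_P1054013 was lowest there, at -0.17, against 4.28 on the array equal to KO_2 and 3.43 on that equal to WT_1. IGHG2B, another gamma gene, read 1.51 there, 3.12 and 1.88 on the arrays equal to KO_2 and KO_3, and 0.41, -0.56 and -1.36 on those equal to WT_2, WT_3 and WT_1. The gamma probes thus did not move one way on this array: IGHG1 was lowest there, and IGHG2B lay between the arrays equal to KO columns and those equal to WT columns.

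Light chains pair with heavy chains in an antibody. The 76 light chain probes had a median level of 7.85, 9.16 and 7.71 in KO_1, KO_2 and KO_3, against 6.28, 6.11 and 6.17 in WT_1, WT_2 and WT_3, and a median difference of 1.51, against -0.01 over all probes. Every KO column lay above every WT column at 49 of the 76, against 4.02% of all probes.

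Genes of B cells other than immunoglobulin, from a list of 24, all measured, differed little. After adjustment 0 passed the limma test, and 1 had an unadjusted p under 0.05. Over all 32246 kept probes 57 passed (0.177%; 53 higher, or 0.164%, and 4 lower) and 1278 had an unadjusted p under 0.05. The list's median difference was 0.06, with 14 positive and 10 negative. Cd79a, part of the B cell receptor, stood at 7.93, 8.40 and 7.88 in KO and 8.17, 8.11 and 8.25 in WT; it is named as a defining gene. Its columns overlapped. Fcrla, an intracellular Fc receptor-like protein of B cells, read 8.14, 8.69 and 8.62 in KO and 7.58, 7.29 and 7.22 in WT. Its difference was 1.12 with an adjusted p of 0.109 (limma). Next by p was Spib, at 11.24, 11.61 and 11.22 in KO and 10.91, 10.95 and 10.99 in WT. It differed by 0.41 with no overlap. Blk and Cd22 followed, with differences of 0.44 and 0.50, and their columns overlapped. The mean level over the list was 8.61, 8.77 and 8.65 in KO and 8.44, 8.61 and 8.65 in WT, and its genes lay above the level of never detected probes in every column but 1 gene in KO_1.

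Of 16 plasma cell genes measured, 0 passed as well. An unadjusted p under 0.05 (limma) was found for 3 of them, against 1 of the 24 B cell genes and 1278 of the 32246 kept probes. Their differences were positive at 6 and negative at 10, and the median was -0.13. Jchain, the joining chain that links IgM and IgA units, read 7.42, 9.60 and 7.99 in KO and 6.50, 6.29 and 6.99 in WT, a difference of 1.74 (SE 0.45, adjusted p = 0.377, limma). Its columns did not overlap. Sdc1, a surface marker of plasma cells, read 6.89, 7.42 and 6.96 in KO and 7.06, 7.45 and 7.22 in WT, and Xbp1, a factor of secretory cells that epithelia express as well, averaged 11.4 in KO and 11.7 in WT. Mzb1, an endoplasmic reticulum protein of B and plasma cells, differed by 0.56, and Fkbp11, a folding enzyme of secretory cells, by -0.71. Sec11c, also among the genes of smallest p of this list, differed by -0.55. The part of B or plasma cells in the heavy chain levels was not tested.

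T lineage genes stood somewhat higher in the KO columns. Of 15, 0 passed and 5 had an unadjusted p under 0.05 (limma). Of their differences 13 were positive, the median was 0.41, and 6 genes (40.0%, against 4.07% of kept probes) had every KO column above every WT column. The same share was 33.3% of the blood and myeloid genes and 12.5% of the plasma cell genes. It was 8.33% of the B cell and 6.67% of the thymic epithelial genes. Mean levels of the T lineage genes were 7.99, 8.26 and 7.99 in KO and 7.49, 7.83 and 7.75 in WT. The genes of smallest p were Cd8b1 (0.97), Dntt (0.91), Cd3e (0.84) and Cd3g (0.80). Of 9 measured blood and myeloid genes, 0 passed, 2 had an unadjusted p under 0.05 (limma) and the median was 0.24, Tyrobp, an adaptor of myeloid and natural killer receptors, having a difference of 0.70. Of the 15 thymic epithelial genes, 0 passed, 0 had an unadjusted p under 0.05 (limma) and the median was -0.02. The part of these cell types in the heavy chain levels was not tested.

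Genes that cut, mutate or switch the locus, and receptors that bind antibody, were read from 2 further lists. Of 14 measured recombination and class switch genes, 0 passed, 2 had an unadjusted p under 0.05 (limma), 8 were positive and 6 negative, and the median was 0.06. These 2 were Rag1 and Dntt, already counted in the T lineage list. Every KO column lay above every WT column at 28.6% of the 14, against 4.07% of kept probes. Of 10 antibody receptor and transport genes, 0 passed, 3 had an unadjusted p under 0.05 (limma) and the median was 0.25. These 3 were Fcgr2b and, already counted in the plasma cell list, Jchain and Mzb1. Of the 10, 40.0% had every KO column above every WT column. Fcgr2b, the inhibitory receptor for IgG, read 8.04, 8.53 and 8.16 in KO and 6.38, 7.23 and 7.01 in WT, a difference of 1.37 with an adjusted p of 0.080 (limma), with no overlap.

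The profile of the constant probes over the 6 columns, as their median level, was set against 28785 kept probes of named genes other than immunoglobulin. Edem2 was most alike (Pearson r = 0.990 over 6 columns), followed by Klrb1a (0.983), Mtus2 (0.980), St3gal2 (0.978), A930033H14Rik (0.978), Bhlhe41 (0.976), Slc28a3 (0.975), Pole2 (0.975), Jade3 (0.975) and Mpp7 (0.974). These are the highest of many correlations over 6 columns, in which KO_2 stands apart, and are given as a description. Their own differences were small, from 0.19 to 0.45 apart from Jade3 at 0.97.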

How the data were processed

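The authors deposited scanner files with intensity values per spot, background-subtracted within the array per the file headers, made with Agilent Feature Extraction (10.7.3.1 per the file headers, 10.6 per the submitters' processing notes). They also deposited a matrix of log2 values per probe, with column medians of 7.13 to 7.14; its normalization is not stated. Its fold ratio, p-value and score columns, made by the authors with a tool the sources do not name, were not used. Each array had 43379 non-control spots, 0 saturated and 397 to 1306 left out as outliers, and 72.6% to 79.5% of probes were well above background. The number of arrays limits the precision.

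Differences are KO mean minus WT mean of the matrix columns. Probes well above background on at least 3 of 6 arrays (32246) were fitted in R 4.3.3 with limma 3.58.1 (lmFit, eBayes, a genotype term), adjusted by Benjamini-Hochberg and called at 0.05; the code was tested on simulated data. With 3 against 3 an exact permutation test cannot go below 0.1. Scanner values were processed intensities, floored at 1, taken to log2 and scaled to each array's 75th percentile. Symbols came through Entrez ID for 32833 probes and from the file for 2076; 6265 had none. A gene was read by its kept probe of highest mean. The level of never detected probes is their 95th percentile in a column.

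Named members were every constant probe, the 10 variable probes of largest difference above that level in at least 3 columns, and the 5 lowest. From each marker list up to 4 genes of smallest p were taken. Cd79a, Sdc1, Xbp1 and Cd80 were named outside that rule. The members and lists were chosen with earlier results of these data known. Alternatives were the filter, scaling, scanner values under titles, slide and replicate blocks and each column left out. As the files hold no mean signal, normexp (offset 50) used the median signal. Single values of some listed genes are not reported here.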

Additional observations from a re-analysis of the deposited data

Results flagged for a closer look

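The array titled KO #2 equalled no matrix column and entered no comparison of the columns. Its heavy chain probes stood above the mean of the other 2 arrays of its slide by a median of 1.22 on the scaled log2 scale, against 0.19 over all probes. It was the highest of the 6 arrays at 16 of the 72 probes, against 42 for the array titled WT #1 and 10 for that titled WT #3. Only 68 of the 72 were measured on all arrays, and blanks were skipped in these counts. The same counts over all probes were not made, so nothing is read from them.

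The 5 probes without a description between the constant genes and the position window were outside the rule. Their KO columns exceeded their WT columns by a median of 2.57 on the log2 scale, against -0.01 over all probes, with no overlap at 3 of the 5, against 4.02% of all probes. The difference was not tested.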

How the results depend on the processing

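Left out one column at a time, the median difference stayed positive for the heavy chain (1.24 to 2.01), constant (0.91 to 1.38), variable (1.25 to 2.06) and light chain probes (1.13 to 1.87). The heavy chain probes with KO wholly above WT numbered 45 to 58. That count cannot fall when a column is left out, so it says nothing about stability. The B cell median ran from -0.02, without WT_1, to 0.09, and the plasma cell median from -0.18 to -0.01. Of the 29 named probes, 6 turned sign when 1 column was left out, in 11 of 174 values: both IGHG1 probes, to -0.42 and -0.52 without KO_2, and 1 of them to -0.03 without WT_3, IGHE (A_51_P140829) to -0.12 without KO_2, and 3 variable probes near 0 (A_51_P342773, which moved to 0.34 without KO_3, A_51_P270661 and A_52_P779997). Probes past the adjusted threshold numbered 27 (without WT_2) to 79, with 34 without WT_3, against 57 in all columns, 26 with no filter on dim probes, and 0 with slide as a block in the 5 columns that equal an array (limma; 2125 had an unadjusted p under 0.05). With the slide as a block the medians were 2.26 for heavy chain, 0.26 for B cell and 0.054 for plasma cell genes, and Mbd1 (-3.22) no longer passed. With detection on all 6 arrays the constant median was 0.49 and the plasma cell median -0.02. The constant probes lost in that setting were bright ones with spots removed as outliers. That setting, the filter at 3 arrays and scaling to the 75th percentile kept the medians of the heavy, constant, variable and light chain probes and of the B and plasma cell genes within 1 SD of the column medians; the medians of the other marker lists were not recomputed.

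The numbers in the column names do not pair the samples: deviations of same-numbered columns correlated at -0.29, -0.19 and -0.33. With the replicate block 95 probes passed, against 57 without, and Fcgr2b passed; medians of balanced pairs are the same by construction.

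The scanner files under their titles turned most values round, as 4 columns equal an array titled for the other genotype. Processed intensities, then normexp and quantile values, gave medians of -0.69 and -0.72 for heavy chain, -0.82 and -0.92 for constant, -0.65 and -0.66 for variable and -0.85 and -0.66 for light chain probes, and 0.16 and 0.10 for plasma cell genes. Mbd1 differed by 1.59 and 0.85. KO lay wholly above WT at 2 and 0 heavy chain probes, and 0 and 0 probes passed (limma; 1268 and 1008 had an unadjusted p under 0.05). Without 1 array the heavy chain median ran from -1.61 to 0.02, the positive value without the array titled WT #1. In the same order, constant probes gave -1.83 and -1.01 (A_51_P509679), -0.76 and -0.77 (A_51_P180159), -1.06 and -0.91 (A_51_P351953), -1.42 and -0.93 (A_52_P571419), -0.87 and -0.97 (A_51_P485421), and -1.29 after normexp (A_51_P187645). Variable probes gave -4.89 and -1.50 (IGHV3-6), -0.96 and -0.99 (IGHV5-9), -0.62 and -0.72 (IGHV5S8), -2.65 and -1.82 (IGHV2-2), -1.29 and -1.18 (X12388), -0.81 and -0.85 (IGHV5-17), -1.02 and -1.05 (NP614311), -0.40 and -0.40 (A_52_P653565), -0.58 and -0.53 (A_52_P532769), -0.21 and -0.019 (A_51_P203356), 0.31 and 0.10 (A_52_P387844), and -0.89 after normexp (U39781). A slide block could not be fitted there, since each slide holds 1 titled genotype.

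Among alternatives chosen after seeing the data, the heavy chain median was 1.57 with the kappa probes, 1.61 without the probes whose description and position differ, 1.69 without those on the plus strand, 1.67 with those below the window and 1.93 without KO_1 and WT_1. Differences of probes near background are understated in log2 values without background subtraction.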
